A study of Mus musculus with 2 samples.

Results

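The cells described here are 676 red cell progenitors of the mouse fetal liver to which the deposited cell table gives no pool name. They were chosen by measured values. Of 2138 cells marked unknown, 1353 were kept that held under 20 UMIs per 10000 of the adult globin transcripts Hba-a1, Hba-a2, Hbb-bs and Hbb-bt, under 5 UMIs of Mpo (a granule enzyme of myeloid cells), and under 3 UMIs of the monocyte genes Ly86, Csf1r and Ccr2 together. A UMI is a unique molecular identifier, the tag that marks 1 captured transcript. The members are the 676 kept cells below the median of the first corrected principal component (PC1) in the deposited cell table, and the 677 others are called the cells above the cut. The members made up 31.6% of the unassigned cells and 27.6% of the CITE-seq library, and all of them came from that library. The series holds 3357 cells in all.

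The study profiled single cells of C57BL/6 mouse embryos at E14.5 (days of gestation), labelled as low in CD71 and CD24, in 2 libraries. In the hashed library, cells of 4 isolations (PE-high, PE-low, FACS CFU-E and FACS BFU-E) carried different antibody-linked barcodes. Cells of the CITE-seq library were stained with barcoded antibodies against CD117 and CD71, and the cell table names some of them CS BFUE or CS CFUE. For both libraries alike the labels also describe growth for 10 days in methanol or in 100 uM dexamethasone, a glucocorticoid. The sources used here do not say if the sequenced cells had this growth, how many embryos were pooled, or how pool names were assigned. Each library is 1 sample with no replicate and cells are not replicates, so every comparison is a description with no test.

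Red cells arise from the burst-forming unit-erythroid (BFU-E), the earliest progenitor limited to this lineage. Its progeny, the colony-forming unit-erythroid (CFU-E), divides fast and depends on erythropoietin. On this path the stem cell factor receptor Kit and the transcription factor Myb decline, while the transferrin receptor (CD71, encoded by Tfrc), CD24 (encoded by Cd24a), heme enzymes and red cell membrane proteins increase. Globin transcripts become abundant only at the erythroblast stage that follows, and the globin limit of the rule removed cells rich in them.

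The 2 antibodies of the CITE-seq library are known by the oligo each one carries, and they are shown because their targets are the products of 2 of the marker genes, Kit and Tfrc. Each oligo has 15 bases, given 5' to 3' as the labels list it. The counts of these antibody tags were not analysed here.
CD117 oligo: tgcatgtcatcggtg
CD71 oligo: accgaccagtagaca

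The limits of the rule cut through continuous distributions. The cut lay at a PC1 of -4.65. The last members inside it had a PC1 of -4.66 and the first cells outside it -4.65 and -4.64, and 65 members and 62 other cells lay within 0.5 of it. Of the globin limit, the highest member held 19.99 UMIs per 10000 and the lowest left-out cell 20.1, and 69 members lay within 5 of the limit. The globin limit took out 657 unassigned cells, the Mpo limit 68 and the monocyte limit 100, some by more than 1 limit, which left out 785 in all. Of the cells left out, 650 lay below the same PC1, and all 650 of these were over the globin limit. The members therefore are the globin-poor share of the unassigned cells at this end of PC1. Of the members, 667 had no UMI of Mpo and 673 none of the monocyte genes, and no member held more than 1 of either.

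The members held 20758545 UMIs, between 9788 and 49971 per cell (median 30085), with a median of 4750.5 detected genes. Over all cells of the series, UMIs per cell ranged from 6863 to 49971. No cell barcode was shared between the libraries. A doublet caller marked 23 of 2453 cells (0.938%) in the CITE-seq library, among them 2 members and 8 of the 195 CS CFUE cells. It marked 2 of 904 cells (0.221%) in the hashed library. Levels are a gene's UMIs summed over a set of cells, scaled to 1000000 UMIs of that set (CPM). The members' floor, 3 counts of their total, is 0.145 CPM.

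On PC1 the members lay at the end of the named CFU-E pools and apart from the named BFU-E pools. Their median PC1 was -6.78, with the middle quartiles from -7.71 to -5.70 and the lowest cell at -10.6. The median was -6.96 in FACS CFU-E (167 cells), -6.08 in PE-high (294 cells) and -5.59 in CS CFUE (195 cells). It was 7.78 in PE-low (208 cells), 9.43 in FACS BFU-E (233 cells) and 11.7 in CS BFUE (122 cells). The members' median was thus closest to that of FACS CFU-E, a pool of the other library. The cells above the cut had a median of 0.0156, between the 2 sets of pools. Since PC1 chose the members, these positions describe the choice and support nothing further.

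Set against each pool's median, 45.9% of the members (95% exact binomial interval 42.1 to 49.7, counting error only) lay below that of FACS CFU-E. Below the median of PE-high lay 65.1%, and below that of CS CFUE 77.5% (74.2 to 80.6). All members lay below the medians of FACS BFU-E, PE-low and CS BFUE. Counted by the nearest pool median, 377 members (55.8%) were nearest to FACS CFU-E, 192 (28.4%) to CS CFUE and 107 (15.8%) to PE-high. The reverse count gave 157 of 167 FACS CFU-E cells (94.0%) below the cut, 130 of 195 CS CFUE cells (66.7%) and 189 of 294 PE-high cells (64.3%). Only 6 PE-low cells (2.88%) lay there, and none of FACS BFU-E or CS BFUE. A count of 0 allows up to 1.57% of FACS BFU-E cells and 2.98% of CS BFUE cells by the exact interval. The members' spread on PC1 was narrow beside that of PE-high, whose middle quartiles ran from -9.06 to -3.10 and whose lowest cell reached -14.2. PE-high was not filtered on globin here, and 58 of its cells were over the limit of the rule. The rule also bounded the members by the cut on PC1 and PE-high by none, so the narrower spread follows from the choice of cells.

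**Figure D1:**
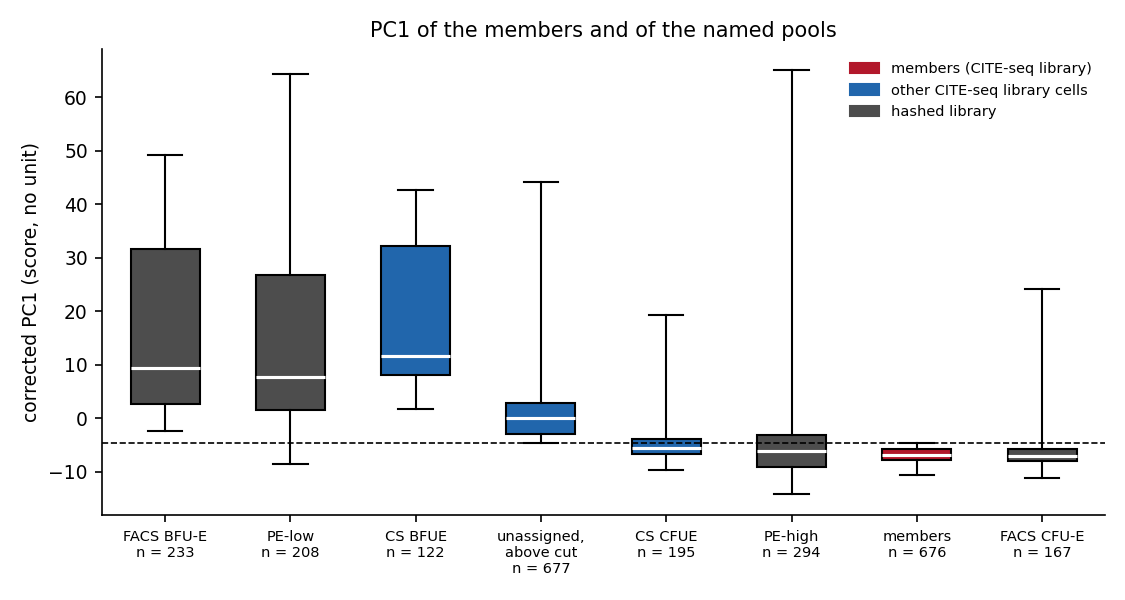
Corrected PC1, a score with no unit, of the members (red), the other sets of the CITE-seq library (blue; the cells above the cut include 1 hashed cell) and the pools of the hashed library (grey). Boxes span the middle quartiles, white lines are medians, whiskers reach the lowest and highest cell, and the dashed line is the cut at -4.65; the members' median of -6.78 sits beside that of FACS CFU-E at -6.96.

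The 4 markers of the label divided into 2 low and 2 high ones in the members. Kit, the receptor for stem cell factor (chr5:75574987-75656722, GRCm38.p6), was at 45.9 CPM (95% Poisson interval 43.0 to 48.9) in the members, 96.9 in the cells above the cut, 70.8 in CS CFUE and 119 in CS BFUE. In the hashed library Kit was at 42.5 CPM in FACS CFU-E, 46.3 in PE-high, 77.8 in PE-low and 97.1 in FACS BFU-E. The members were the lowest of these CITE-seq sets in Kit. Levels of the hashed pools stand beside them as values only, since the libraries differed by a median log2 ratio of -0.26 between the members and FACS CFU-E, and library and pool cannot be told apart.

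Myb, a transcription factor of proliferating blood progenitors (chr10:21124930-21160984), followed the same order within the CITE-seq library. Its level was 107 CPM (103 to 112) in the members, 163 in CS CFUE, 235 in the cells above the cut and 364 in CS BFUE. Among hashed pools Myb was at 108 CPM in FACS CFU-E and at 152 in PE-high. The members thus held the least Myb of these CITE-seq sets.

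Tfrc, which brings iron into the cell (chr16:32608896-32632794), was at 291 CPM (283 to 298) in the members, 206 in the cells above the cut, 276 in CS CFUE and 58.6 in CS BFUE. Cd24a, which encodes the CD24 surface antigen (chr10:43579169-43584265), was at 341 CPM (333 to 349) in the members, 193 in the cells above the cut, 294 in CS CFUE and 65.0 in CS BFUE. Cd24a was highest in the members among these sets, while for Tfrc the intervals of the members and CS CFUE (264 to 288) overlapped. With each cell thinned to 10000 UMIs, Tfrc had a mean of 2.89 UMIs in the members and 2.91 in CS CFUE. In FACS CFU-E the levels were 326 CPM for Tfrc and 374 for Cd24a. The labels call these cells low in CD71 and CD24, which refers to the proteins, and the transcripts of both genes were detected in nearly all members. Thinned alike, 91.9% of 675 members had a UMI of Tfrc and 96.4% of Cd24a, against 35.7% for Kit and 58.7% for Myb. In CS BFUE the shares were 41.0% for Tfrc, 42.6% for Cd24a, 64.8% for Kit and 92.6% for Myb. One member was too shallow to be thinned.

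**Figure D2:**
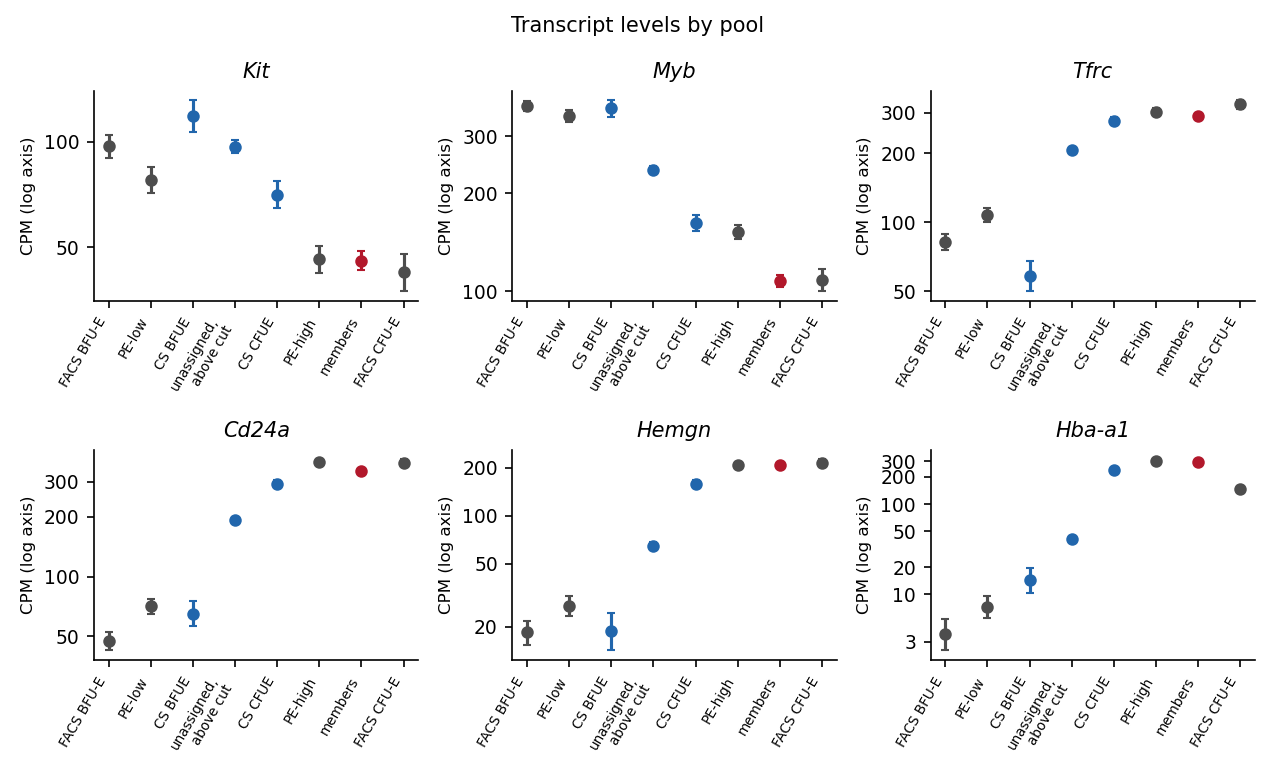
Levels in CPM on a log axis of Kit, Myb, Tfrc, Cd24a, Hemgn and Hba-a1 in 8 sets of cells, with 95% exact Poisson intervals for counting error. The members (red) stand at 45.9 CPM for Kit and 107 for Myb, CS CFUE at 70.8 and 163 and CS BFUE at 119 and 364; grey points are the hashed library.

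The members were next set against the unassigned cells above the cut, which passed the same filters and, but for 1 cell of the hashed library, came from the same library. Genes were compared if 1 of the 2 sets held at least 50 CPM and a UMI in 10% or more of its cells. A gene was called past a ratio of 1.5 in either direction, which is a rule of size and no test. Of 2881 genes compared, 79 were higher in the members (2.74%) and 57 lower (1.98%), and 95.3% lay between. Of the 79, 41 entered through the members alone, and of the 57, 34 through the cells above the cut alone, so that their direction follows from the filter. PC1 was made from expression, so nothing is read from these shares; they say what the split on PC1 consisted of.

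Globin genes had the highest ratios even below the globin limit. Hba-a1, an adult alpha globin (chr11:32283672-32284486), was at 297 CPM in the members and 41.0 above the cut, a 7.23-fold difference (95% exact interval 6.73 to 7.78, counting error only). Hba-a2 stood at 114 against 20.7 CPM, and the beta globins Hbb-bt and Hbb-bs at 138 against 31.1 and 127 against 34.2. Per cell the 4 globins together had a median of 5.25 UMIs per 10000 in the members and 1.07 above the cut. Reads of the near-identical copies Hba-a1 and Hba-a2, and of Hbb-bs and Hbb-bt, may have been split between them by the counting. The rule used the sum of these 4 genes as an upper limit for both sets, and 3 members had no globin UMI at all. All 4 entered the comparison through the members alone, so their direction follows from the filter and nothing is read from their rank.

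The erythroblast list held 24 genes, of which 11 were compared. Of these, 8 were higher in the members and none lower, with a median log2 ratio of 0.86 beside -0.02 over all genes compared, and 6 of the 8 entered through the members alone. Sptb, the beta spectrin of the membrane skeleton, was at 62.7 CPM in the members and 19.0 above the cut (3.31-fold, 2.95 to 3.71). Ank1, an anchor protein of the same skeleton, stood at 78.5 against 49.5 CPM.

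Genes of the CFU-E stage list were compared for 27 of its 32 entries, and 15 were higher in the members and 1 lower, with a median log2 ratio of 0.67. Of the 15, 5 entered through the members alone. Hemgn, a nuclear protein of erythroid cells (chr4:46393989-46404183), was at 209 CPM in the members and 64.7 above the cut (3.23-fold, 3.04 to 3.44). Acp5, an acid phosphatase, stood at 82.2 against 22.8 CPM, Mrap, an accessory protein of melanocortin receptors, at 75.4 against 21.4, and Cldn13, a claudin, at 222 against 82.3. Rgcc, a regulator of the cell cycle, was at 452 against 171 CPM. The Rh blood group genes Rhd and Rhag were at 290 against 132 CPM and 166 against 95.4. The gene of the list that went the other way was Car1, a carbonic anhydrase, at 23.2 CPM in the members and 51.0 above the cut, while its relative Car2 stood at 1408 against 821. The erythropoietin receptor Epor (151 against 103 CPM) and the transcription factor Klf1 (377 against 273 CPM) lay within the 1.5-fold limit.

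Heme biosynthesis and iron genes leaned the same way. Of 14 heme genes compared, 9 were higher in the members and none lower (median log2 ratio 0.75, beside -0.02 over all genes compared). Of the 9, 5 entered through the members alone, Uros, Abcb10 and Slc25a37 among them. Uros (uroporphyrinogen III synthase) stood at 60.7 CPM against 21.1 and Fech (ferrochelatase, which inserts the iron) at 143 against 85.9. Abcb10 and Slc25a37 (mitoferrin), 2 proteins of the mitochondrial inner membrane that serve heme synthesis, stood at 65.2 against 28.6 CPM and 54.2 against 24.2. Of 11 iron genes compared, 2 were higher, Slc25a37 and the ferritin heavy chain Fth1 (5027 against 3270 CPM, 1.54-fold). The erythroid enzyme Alas2, which opens heme synthesis in later cells, was at 2.99 CPM in the members and 0.531 above the cut, too low to be compared.

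Among the lowest ratios stood Vim, Apoe, Cmtm7 and Tmsb4x. Vim (vimentin, an intermediate filament protein; chr2:13574311-13582826) was at 1.11 CPM in the members, 61.7 above the cut and 348 in CS BFUE, a ratio to the cells above the cut of 0.0180 (0.0113 to 0.0271). Apoe (apolipoprotein E, a lipid carrier) stood at 9.88 against 150 CPM, Cmtm7 (a membrane protein) at 6.84 against 99.5, and Tmsb4x (thymosin beta 4, which binds actin monomers) at 52.3 against 286. The regulators of blood progenitors Myb, Cbfa2t3 (a corepressor) and Cdk6 (a G1 kinase) were all lower in the members, Cdk6 at 91.7 against 155 CPM and Cbfa2t3 at 57.8 against 88.9. The D-type cyclin Ccnd2 stood at 71.4 against 119 CPM. Of the list of early erythroid progenitor genes, 6 of 24 were compared, and 3 were lower in the members and none higher.

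The 2 pyruvate kinase genes went opposite ways. Pkm, the form of most proliferating cells, was at 85.4 CPM in the members and 170 above the cut, and Pklr, the form of liver and red cells, at 113 against 69.6. Of 16 erythroid transcription factors compared, 1 was higher (Mllt3) and 2 lower (Myb and Cbfa2t3), where 2.74% of all genes compared were higher and 1.98% lower. The list's median log2 ratio was 0.17 beside -0.02 over all genes compared, and Gata1 stood at 130 against 111 CPM. No gene of 38 compared on the S phase list or of 36 on the G2/M list was past the limit. Of 29 genes on the MYC and nucleolus list, 1 was past it, Nme2, a nucleoside diphosphate kinase, at 520 against 957 CPM, and summed over the list the level was 19707 against 22390 CPM.

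Hepatocyte transcripts were among the lowest ratios, and they rested on few cells above the cut. Alb (albumin) was at 10.9 CPM in the members and 133 above the cut, Afp (alpha-fetoprotein) at 10.6 against 109, and Apoa2 at 4.82 against 56.6. Of 6199 UMIs of the 3 genes above the cut, 5595 (90.3%) were in 3 cells, 1 of which held 4627. No member held more than 4, and outside the 3 cells the level above the cut was 29.3 CPM beside 26.4 in the members. Without these cells, a setting chosen after seeing the data, 54 genes were lower in the members.

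**Figure D3:**
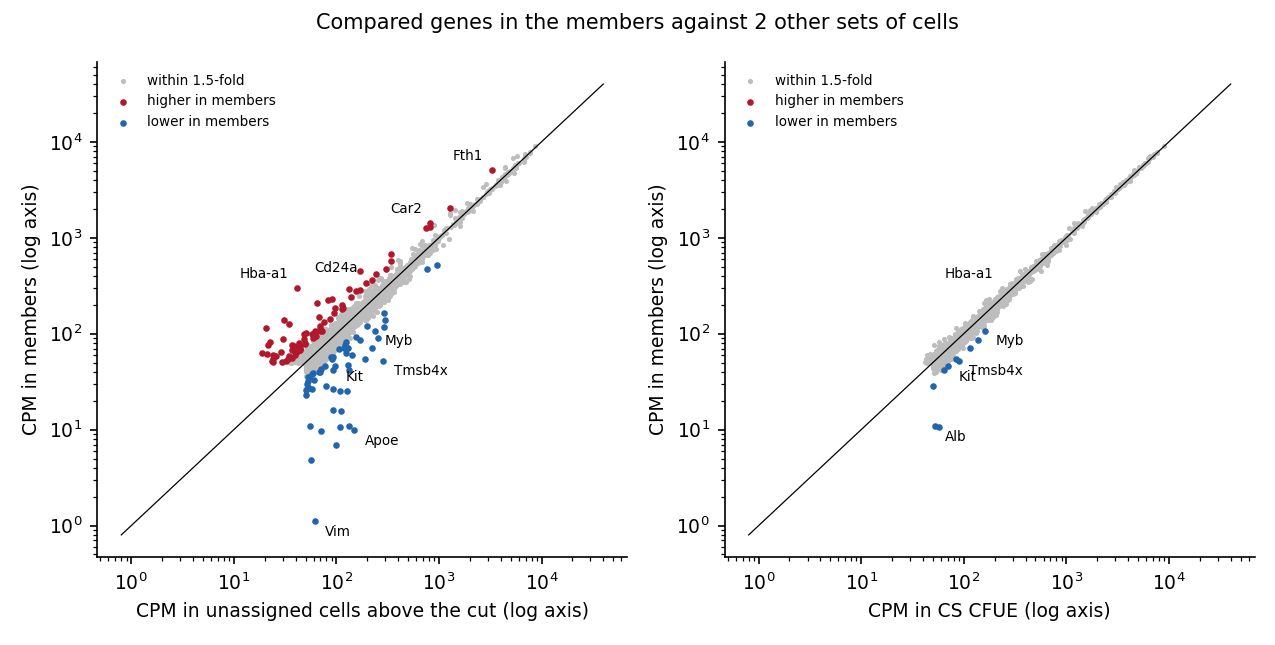
Levels in CPM of the compared genes in the members (vertical, log axis) against the cells above the cut (left) and against CS CFUE (right, both horizontal log axes). Red and blue points lie past 1.5-fold: 79 higher and 57 lower on the left, none higher and 10 lower on the right; the black line marks equal levels.

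The stretch upstream of the start site is shown for 2 genes with high and 1 with low ratios, because genes of each set moved together along PC1 and GATA and KLF factors are known to bind such letters in erythroid promoters. The sequences are the 250 bases before the gene's start in the RefSeq annotation of GRCm38.p6, 5' to 3' on the gene's strand. Capitals mark 2 kinds of letters. The GATA type is AGATAA, or the same with another first base, TGATAA. The KLF type is CCNCNCCC. Both were searched on both strands, where neighbouring matches may overlap and run together.
Sptb, chr12:76710548-76710797, minus strand: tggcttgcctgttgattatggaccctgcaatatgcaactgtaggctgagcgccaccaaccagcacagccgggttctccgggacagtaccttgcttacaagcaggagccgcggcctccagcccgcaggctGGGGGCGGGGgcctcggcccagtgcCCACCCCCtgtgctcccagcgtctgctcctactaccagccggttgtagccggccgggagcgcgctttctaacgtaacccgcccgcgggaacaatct
Hemgn, chr4:46404184-46404433, minus strand: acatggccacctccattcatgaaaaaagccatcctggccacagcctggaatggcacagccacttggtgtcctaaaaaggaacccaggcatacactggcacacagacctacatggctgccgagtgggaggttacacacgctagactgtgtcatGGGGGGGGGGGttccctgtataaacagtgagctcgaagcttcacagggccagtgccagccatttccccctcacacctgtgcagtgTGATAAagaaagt
Vim, chr2:13574061-13574310, plus strand: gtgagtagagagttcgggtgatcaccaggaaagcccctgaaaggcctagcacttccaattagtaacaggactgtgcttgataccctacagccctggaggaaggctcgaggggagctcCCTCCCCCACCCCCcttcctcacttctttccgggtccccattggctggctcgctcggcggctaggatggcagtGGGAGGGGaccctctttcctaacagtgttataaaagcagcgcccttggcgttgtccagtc

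Hemgn had 1 match to the GATA-type letters close to its start and 4 to the KLF-type letters, Sptb 0 and 3, and Vim 0 and 4. The 4 in Hemgn overlap within 1 run of G. RefSeq held windows for 55 of the 79 genes higher in the members (74 windows) and for 50 of the 57 lower (68 windows). GATA-type letters occurred in 16.6% of all 32851 windows, in 9.19% of 2850 windows of compared genes, in 21.6% of windows of genes higher in the members and in 16.2% of those lower. KLF-type letters occurred in 45.9%, 62.8%, 64.9% and 76.5% of the same sets. The exact binomial interval for GATA-type letters was 12.9 to 32.7% for genes higher in the members. It lay above the share over compared genes but included that over all windows. For genes lower in the members it was 8.36 to 27.1%, which includes both shares and overlaps the first interval. For KLF-type letters it was 64.6 to 85.9% for genes lower in the members, above the share over compared genes. For genes higher in them it was 52.9 to 75.6%, which includes that share. The gene sets came from the split on PC1, and no difference between them was tested. A match says nothing about binding. Windows of 1 gene share sequence, while the intervals count each window as independent. They may therefore be too narrow, and nothing is read from where they lie.

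Against CS BFUE, the named early pool of the same library, the members differed in far more genes. Of 3071 compared, 336 were higher in the members (10.9%) and 320 lower (10.4%). Mrap was at 75.4 CPM in the members and rested on 3 UMIs in CS BFUE (1.01 CPM, a ratio of 74.6 with an interval from 25.5 to 362). Cldn13 stood at 222 against 7.41 CPM, Hba-a1 at 297 against 14.49 and Rgcc at 452 against 22.2. Of the CFU-E stage list, 26 of 27 genes were higher in the members and 1 lower, which was Car1 again at 23.2 against 92.0 CPM, and 18 of the 26 entered through the members alone. Cd24a was 5.24-fold higher (4.54 to 6.08) and Tfrc 4.96-fold (4.26 to 5.80). The cyclin Ccne1 stood at 154 against 31.0 CPM, the amino acid enzyme Asns (asparagine synthetase) at 364 against 104, and the metallothionein Mt2 at 857 against 191.

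Of the stem and multipotent progenitor list, 5 of 15 genes were compared with CS BFUE, 4 were lower in the members and 1 higher (Mllt3, 107 against 35.7 CPM). Of the granulocyte list, 3 of 11 were compared and all 3 were lower, entering through CS BFUE alone. Cd34, a marker of stem and early progenitor cells, had 1 UMI in the members (0.0482 CPM) and 105 CPM in CS BFUE. Ctsg (cathepsin G, a granule protease) had no UMI in the members and 86.2 CPM in CS BFUE, at least 597-fold lower with the members set to 3 counts of their total. Serpinb1a, Ctla2a and Ifitm1 had 1, 3 and 4 UMIs in the members. Of the list of membrane and signalling genes of early progenitors, 17 of 22 were compared and 15 were lower in the members, all 15 entering through CS BFUE alone. On the interferon list the 5 genes compared were lower, and all 5 entered through CS BFUE alone. Mpo was used by the rule for the members and not for CS BFUE, of whose 122 cells 86 would have passed the limits of the rule.

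Against CS CFUE, the named late pool of the same library, few genes differed. Of 2842 compared, none was higher in the members (0%) and 10 were lower (0.352%), and 95% of the genes lay within a log2 ratio of 0.27 either way. Myb and Kit were 2 of the 10, with ratios of 0.660 (0.615 to 0.709) and 0.648 (0.582 to 0.722), and Pkm stood at 85.4 CPM in the members and 139 in CS CFUE. The others were Alb, Afp, Tmsb4x, H2afy (a histone variant), Arpc1b (of the actin-nucleating complex), Syngr2 and Gm15915. None of the globin, heme, CFU-E stage or erythroblast genes was among them: Hba-a1 stood at 297 against 238 CPM and Hemgn at 209 against 158. So few genes were called that this is near the overall share and does not show equal levels. Summed, the CFU-E stage list stood at 7527 CPM in the members against 6685 and the heme list at 5324 against 4717. The erythroblast list stood at 1298 against 1181 CPM and the globins at 675 against 565. The limits of the rule were not applied to CS CFUE, so a filtered set is compared here with an unfiltered one. Of its 195 cells, 181 would have passed the limits, and 12 were over the globin limit. Granulocyte markers reached 50 UMIs in a CS CFUE cell and 3 in a member.

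Depth and other cells moved with this comparison. Median UMIs per cell were 30085 in the members and 37589 in CS CFUE. In CS CFUE 2 cells held 711 of 933 UMIs of Alb, Afp and Apoa2 (76.2%), and without them, a setting chosen after seeing the data, 5 genes were lower in the members and Kit and Myb, each at a log2 ratio of -0.58, lay just inside the limit. Without called doublets 1 gene was higher and 6 were lower, and the log2 ratio of Tmsb4x was -0.24 in place of -0.78, while that of Kit was -0.65 in place of -0.63 and that of Myb -0.61 in place of -0.60. With cells thinned to 10000 UMIs, 2 genes were higher and 12 lower, 7 of them among the 10, and the log2 ratios were -0.61 for Kit, -0.52 for Myb and -0.58 for Tmsb4x, the last 2 inside the limit. The call of Myb was also lost with median ratio scaling (-0.58) and those of Myb (-0.56) and Kit (-0.53) with a pseudocount of 10 CPM. Cells with both Xist and Y-linked transcripts were 9 of 195 in CS CFUE (4.62%) and 7 of 676 among the members (1.04%). The part of mixed cells in the other ratios was not tested.

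The CS CFUE pool also spread to higher PC1 than the members, so cells with a name were taken within the members' range. Of the named cells of the CITE-seq library, 121 passed the limits of the rule and lay within the members' range of PC1. All 121 were CS CFUE cells, so they are a part of the pool compared above and not a further set. Their median PC1 was -6.28 beside -6.78 in the members, so range and not position was matched. Of 2822 genes compared, 1 was higher in the members (0.0354%) and none lower (0%). The gene was Hbb-bs, at 127 CPM in the members and 68.8 in the named cells (1.84-fold, 1.63 to 2.08). The other adult globins leaned the same way inside the limit, Hba-a1 at 297 against 202 CPM and Hbb-bt at 138 against 92.2. The rule itself limited the sum of these globins, Hbb-bs included, in both sets, so their levels are given as values and no trait is read from them. Kit stood at 45.9 against 58.9 CPM and Myb at 107 against 130, ratios of 0.779 (0.679 to 0.896) and 0.827 (0.754 to 0.907). Within this range, 99.96% of compared genes lay within 1.5-fold of these CS CFUE cells.

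The FACS pools of the hashed library share no cells with the members and offer a list of stage genes. Of 2 lists made by the same rule, 318 genes were higher in FACS CFU-E than in FACS BFU-E and 333 lower. Of the 318, 73 were also called higher in the members than above the cut, which is 23.0% of the 318 and 92.4% of the 79, and none was called lower. Only 270 of the 318 were compared there, and these were 9.37% of all genes compared. Of the 333, 52 were called lower in the members, 15.6% of the 333 and 91.2% of the 57, and none higher. Of the 333, 152 were compared there, 5.28% of all genes compared. By level alone, 310 of the 318 were higher in the members than above the cut. The same share was not counted over all genes, whose median log2 ratio was -0.02 over the 2881 compared. The deposited PC1 covers both libraries, so neither the overlap of the lists nor the count by level is independent of the split, and nothing is read from them.

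No gene was called between the members and FACS CFU-E, since they differ in library as well as in pool. The median log2 ratio over 3186 genes was -0.26 between them, and -0.23 between CS CFUE and FACS CFU-E. Transcripts of ribosomal protein genes summed to 302614 CPM in the members, 298293 in CS CFUE and 318067 in CS BFUE, against 225684 in FACS CFU-E. The metallothionein Mt1 stood at 2114 CPM in the members and 2138 in CS CFUE, against 947 in PE-high and 981 in FACS CFU-E. The ribosomal sums separate the libraries, not the members from the rest of their library. Mt1 is given here for the members and the late pools only. Its relative Mt2 was lower in CS BFUE than in the members, so metallothionein levels also differed within the CITE-seq library.

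Within the members, expression changed along PC1. They were divided by PC1 into 5 groups of 135 or 136 cells, group 1 having the lowest PC1. Of 2858 genes compared between groups 1 and 5, 68 were higher in group 1 (2.38%) and 56 lower (1.96%). Of the 68, 51 declined in every step from group 1 to group 5, and of the 56, 42 increased in every step. Median depth was similar, 29263.5 UMIs per cell in group 1 and 29915 in group 5, and over the members PC1 and the log of UMIs had a Pearson r of 0.058 (676 cells of 1 library, a description).

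Hba-a1 stood at 606, 368, 255, 154 and 112 CPM from group 1 to group 5. Hemgn ran from 287 through 256, 209 and 153 to 142 CPM. Both genes declined toward the cut in every step. Trim10, a RING finger protein of erythroid cells, was 4.04-fold higher in group 1 than in group 5 (2.99 to 5.54), Acp5 3.13-fold, Slc25a37 2.63-fold and the erythroid noncoding RNA Redrum 2.47-fold. Of the CFU-E stage list 12 of 27 were higher in group 1, of the erythroblast list 7 of 11 and of the heme list 6 of 14, with none lower in the 3 lists. In each list 3 of these entered through group 1 alone. Median globin UMIs per 10000 ran from 12.6 in group 1 to 2.16 in group 5, so the globin limit lay closest to group 1.

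Myb stood at 52.7, 98.4, 101, 123 and 161 CPM from group 1 to group 5, and Ifngr1, a chain of the interferon gamma receptor, at 18.0, 33.0, 37.0, 56.1 and 64.6. Kit ran from 21.8 CPM in group 1 to 62.1 in group 4 and 60.03 in group 5. Group 1 was thus the lowest of the 5 in all 3 genes, at 0.328 (0.280 to 0.383) of group 5 for Myb and 0.362 (0.281 to 0.464) for Kit. Myc, which drives growth and ribosome making, stood at 60.8 CPM in group 1 and 113 in group 5, the corepressor Cbfa2t3 at 33.6 against 76.1 and the endosomal GTPase Rab4a at 23.5 against 59.1. Tfrc and Cd24a differed less, at 327 against 258 CPM and 411 against 278, both inside the limit.

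Of the S phase and G2/M lists, only the G2/M list had genes past the limit along PC1. Of the G2/M list 7 of 38 were higher in group 1 and none lower, among them the mitotic kinesins Kif23 (69.0 against 38.9 CPM) and Kif11 (120 against 70.6), and the list's median log2 ratio was 0.37 beside -0.03 over all genes compared. Of 38 S phase genes none was past the limit, where 2.38% of all genes compared were higher and 1.96% lower. The S phase list summed to 6525 CPM in group 1 (6446 to 6604) and 6066 in group 5 (5991 to 6141), with a median log2 ratio of 0.11. The absence of calls therefore does not show that S phase genes were level. Mitochondrially encoded transcripts summed to 40895 CPM in group 1 and 34649 in group 5, and to 37355 in all members against 30071 above the cut. Genes of the MYC and nucleolus list summed to 17407 CPM in group 1 and 21219 in group 5.

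**Figure D4:**
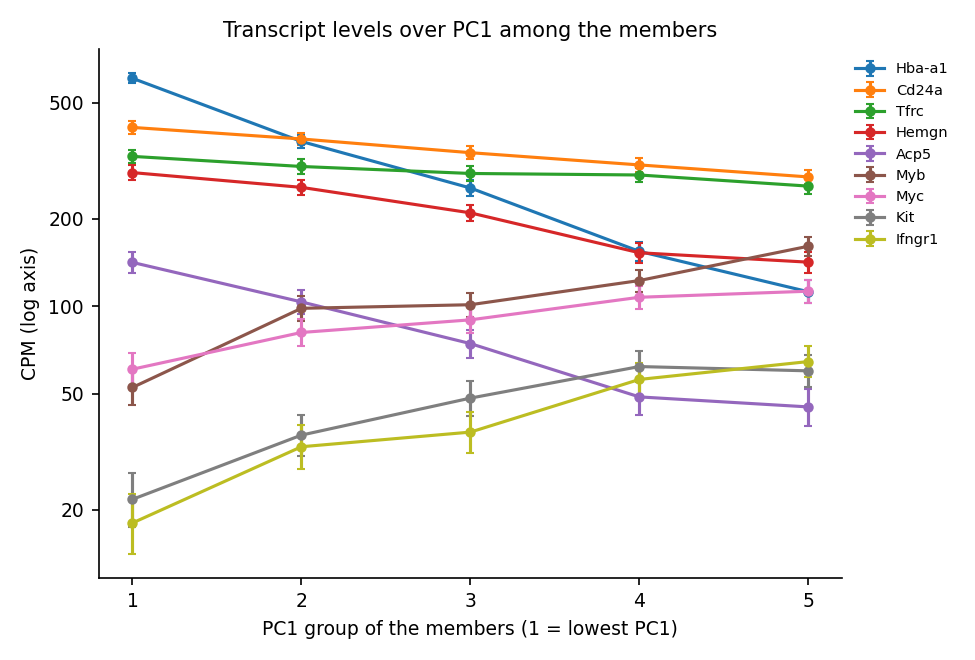
Levels in CPM on a log axis of 9 genes in 5 groups of members ordered by PC1, group 1 lowest, with 95% exact Poisson intervals for counting error. Hba-a1 declines from 606 to 112 CPM and Myb climbs from 52.7 to 161, while Tfrc stays between 258 and 327.

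Among these cells, which were chosen by PC1, the second deposited component ran largely with PC1, though not for all genes. Over the members PC1 and PC2 had a Pearson r of -0.86. With the members divided by PC2 into 3 groups, 56 of 2855 genes were higher in the lowest PC2 group than in the highest (1.96%) and 44 lower (1.54%). Of the 44, 42 were also among the 68 genes higher at low PC1, and of the 56, 36 were among the 56 lower there. Ifngr1 (66.9 against 21.0 CPM), Myb (159 against 59.2) and Kit (66.9 against 26.9) were among the 4 highest ratios, and Hba-a1 (116 against 533 CPM) had the lowest. Srm (spermidine synthase), of the MYC and nucleolus list, stood at 494 against 301 CPM.

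The spread of each gene between members was set beside counting error. Among 675 members thinned to 10000 UMIs, the variance of a gene's UMIs divided by its mean had a median of 1.06 over 2712 genes with a mean of at least 0.5, beside the 1 that counting alone gives. At means this low, a ratio near 1 does not show that cells are alike. The ratio was above 2 for 37 genes. Highest was Hist1h1b, a replication-dependent linker histone, at 10.3: its quartiles were 6, 18 and 28 UMIs per cell, 71 members had none, and the highest had 75. Its Pearson r with the sum of Hist1h1a, Hist1h1d, Hist1h1e, Hist1h4d and Hist2h2ac was 0.763, and with the S phase list 0.345, over cells that share 1 library and 1 depth. Its r with PC1 was -0.034, so the histone level varied along another direction than the split.

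Other genes above 2 belonged to several groups. Of the proliferation genes, Ube2c (2.61), Mki67 (2.54) and Top2a (2.41) were above 2, and the sums of the S phase and G2/M lists had an r of -0.261. The chaperone Hspa8 (5.61) and the nucleolar protein Ncl (4.38) were above 2 as well, and the heat shock and MYC and nucleolus lists had an r of 0.531. Mt1 (4.09) and Mt2 (3.11), 2 metallothioneins that bind zinc, had an r of 0.617 with each other. Of the globins, Hba-a1 (3.04) had an r of -0.591 with PC1, and the ferritin gene Fth1 (2.40) one of -0.469. The ratio was 1.15 for Kit, 1.48 for Myb, 1.40 for Tfrc and 1.15 for Cd24a. It depends on the mean, which was 0.468 UMIs for Kit, so it gives no order of variability between genes. Kit and Myb had an r of 0.160 with each other, a weak relation in sparse counts that is no finding.

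**Figure D5:**
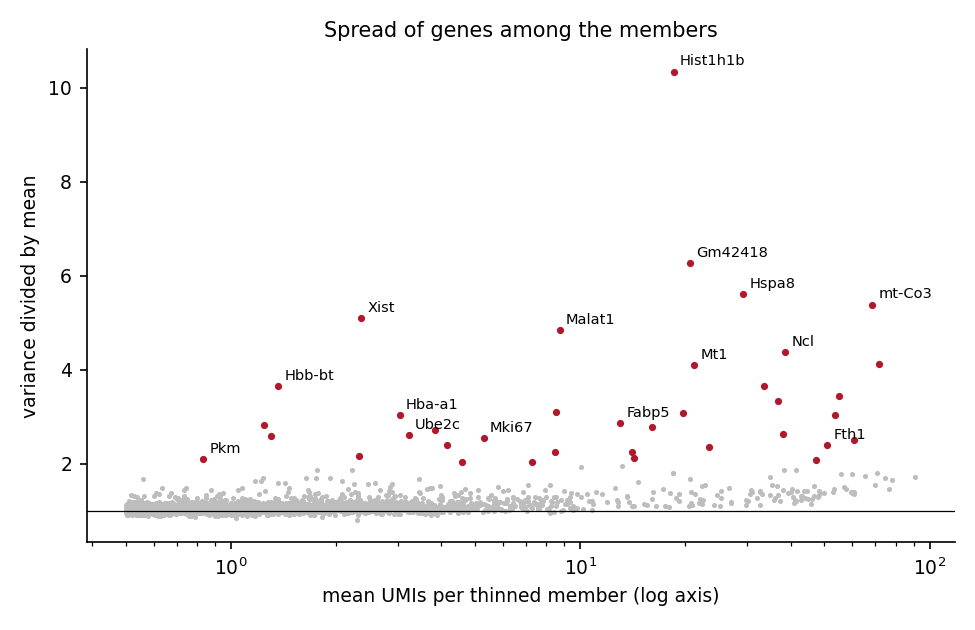
Variance divided by mean of UMIs (vertical) against mean UMIs per cell (horizontal, log axis) for 2712 genes in 675 members thinned to 10000 UMIs; the line at 1 is what counting alone gives. Red points are the 37 genes above 2, with Hist1h1b highest at 10.3.

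Markers of other cell types were sparse in the members. Lymphoid markers summed to 23 UMIs in all 676 cells, at most 1 per cell, and granulocyte markers to 92, at most 3 per cell. Monocyte and macrophage markers summed to 104 UMIs, at most 5 per cell. Above the cut the same 3 lists summed to 1490, 396 and 299 UMIs, with single cells reaching 210, 24 and 36. The megakaryocyte list reached at most 9 UMIs in a member, with a median of 2, and the list of endothelium and stroma at most 12, with a median of 3. Mast cell and basophil markers reached at most 7 and hepatocyte markers at most 6. The list of stem and multipotent progenitors reached 18, with a median of 6. Several of these lists hold genes that erythroid progenitors also express. The rule limited 4 of these genes in both sets.

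Both sexes were present among the members. Xist, the noncoding RNA of the inactive X chromosome, had at least 3 UMIs and Y-linked genes none in 260 members, and Y-linked genes had at least 1 UMI and Xist none in 361. The Xist cells were 41.9% of the 2 groups together (38.0 to 45.9), beside 39.8% (35.9 to 43.8) above the cut. Their median PC1 was -6.78 and that of the Y cells -6.81. Of 2779 genes compared between them, 1 was past the limit on each side (0.036% and 0.036%). These were Xist and the Y-linked Eif2s3y, both used to form the groups.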

How the data were processed

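Single-cell RNA was counted with Cell Ranger 4.0.0 on build mm10 and handled with Scanpy, per the submitters' processing notes. Cell filters, strand setting, pool naming and the making of the corrected components are steps the sources used here do not give. The deposited values are natural log values of 1 plus each cell's count per 10000, so 100% of 16419767 nonzero values could be returned to whole UMIs (tolerance 0.02). The components are scores in the authors' deposited cell table. Cells were placed in a library by their barcode ending: named hashed pools share one ending, and the CITE-seq library took the other by elimination.

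UMIs were summed over cells of a set, so cells carry weight by depth. Ratios have 95% exact conditional binomial intervals and levels exact Poisson intervals, and these and the floor of 3 counts cover counting error only. The members, lists and comparisons were chosen with earlier results of these data known. The text names, for the cells above the cut, the 12 highest and 12 lowest ratios past 1.5-fold and up to 4 genes of each list; for other comparisons the 8 highest and 8 lowest and up to 2 of each list; and the 4 markers. Other genes were picked after their values were seen. The rules call a size and not a significance. Doublets were called with Scrublet in scanpy 1.11.5 and kept, and leaving them out was an alternative. Other alternatives changed the scaling, weighting, depth, level filter, pseudocount, cell filters and the middle of PC1. On simulated counts for the comparison with the cells above the cut, run on 2753 genes, all 50 genes changed 2-fold and all 50 changed 3-fold were called right. The simulated cells of a set shared 1 expression profile, and the changed genes were picked well above the level filter. This check therefore says nothing of genes near that filter or of genes carried by few cells. Work used Python 3.11.15, numpy 2.4.6, scipy 1.17.1, pandas 2.3.3 and matplotlib 3.10.9. Start sites, coordinates and promoter sequences came from RefSeq tables of GRCm38.p6, matched by symbol. Some genes of the lists are not reported here.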

Additional observations from a re-analysis of the deposited data

How the results depend on the processing

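No paired analysis was possible because each library is 1 sample and no comparison comes from a test. For the same reason no replicate could be left out. Of the gene values recomputed, level filters aside (they cannot move a ratio), 881 stayed within their interval, 237 moved and no called one changed sign. Counts below are given as higher and lower in the members, in group 1 of PC1 or in the lowest PC2 group. With a level filter of 20 CPM they were 141 and 172 against the cells above the cut, 588 and 837 against CS BFUE, 128 and 174 along PC1, 144 and 81 along PC2, and 3 and 3 against named cells in the same PC1 range, and 28 genes were lower than in CS CFUE. With no level filter they were 495 and 1868, 1317 and 2448, 458 and 718, 682 and 410, and 435 and 335 in the same order, and 263 and 552 against CS CFUE. With no cell filters, which gave 1069 cells on each side of the cut, they were 153 and 199 against the cells above the cut, 53 and 87 against CS CFUE and 20 and 15 in the same PC1 range, and 100% of the cells below the cut lay below the CS CFUE median. Leaving out the middle of PC1 gave 94 lower genes against the cells above the cut. Thinning to 10000 UMIs gave 2 higher than in CS CFUE, 122 lower along PC1, 98 higher along PC2, and 5 and 6 in the same PC1 range. A pseudocount of 10 CPM gave 6 lower than in CS CFUE and 29 higher along PC2. Leaving out doublets gave 1 and 6 against CS CFUE and 2 higher in the same PC1 range. Leaving out cells rich in hepatocyte transcripts, added after seeing the data, gave 5 lower than in CS CFUE. Looser filters admit more genes; the cause of the other shifts was not tested. Depth sets the counting intervals, from 20758545 UMIs in the members to 2968491 in CS BFUE.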
